A study of Neurospora crassa with 2 samples.

Results

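The genes described here are 10 *Neurospora crassa* genes for mitogen-activated protein (MAP) kinase cascades and for osmosensing, out of 9730 genes in the table. They were chosen by locus and by name, without a rule on their values, but with earlier results of these data known. The genes are *pkc* (NCU06544), *mik-1* (NCU02234), *mek-1* (NCU06419), *nrc-1* (NCU06182), *mek-2* (NCU04612), *mak-2* (NCU02393), *os-1* (NCU02815), *os-4* (NCU03071), *os-5* (NCU00587) and *os-2* (NCU07024). All 10 were found in the table. They were read in 1 RNA-seq library of a Δ*gul-1* strain and 1 library of the wild type (WT), both from mycelia of this filamentous ascomycete after 3 days of submerged culture in constant light on Avicel, a crystalline cellulose, with yeast extract and Tween 80. *gul-1* (NCU01197) encodes an mRNA-binding protein related to yeast Ssd1, and the question was which transcripts differ when it is deleted. Both strains came from a public stock centre, and the labels give 1 mycelial sample of each, without saying whether cultures were pooled.

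In a MAP kinase cascade, a MAP kinase kinase kinase (MAPKKK) phosphorylates a MAP kinase kinase (MAPKK), which phosphorylates a MAP kinase (MAPK), which in turn acts on transcription factors and other proteins. In *N. crassa* the cell wall integrity cascade (MIK-1, MEK-1 and MAK-1) lies under protein kinase C, the MAK-2 cascade (NRC-1, MEK-2 and MAK-2) serves cell fusion and sexual development, and the OS cascade (OS-4, OS-5 and OS-2, the counterpart of yeast Hog1) responds to high osmolarity and to fungicides through the histidine kinase OS-1. These kinases are controlled mainly by phosphorylation, which RNA-seq does not measure.

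The deleted gene was read first. *gul-1* had 304 reads and 2.89 RPKM in the Δ*gul-1* library, against 21537 reads and 203.7 RPKM in the WT library. The totals of reads assigned to genes were 20341292 in Δ*gul-1* and 20461987 in WT. RPKM are reads divided by the exon length of a gene and by the library total. A gene was said to be past the expression floor with an RPKM above 20 in at least 1 library, which 4409 genes were. With 1 library per strain no test between strains was possible and no p-value is given. The intervals given for the ratio of a gene are exact 95% intervals from the read counts of the 2 libraries, so they hold counting error and say nothing of how cultures of a strain vary. Of 5 genes of conidia fixed as markers, *con-6* and *con-10* were higher in Δ*gul-1* (ratios of 2.06 and 1.44) and *eas*, *fl* and *con-8* were lower (0.0292, 0.403 and 0.724). The hyphal gene *hex-1* was abundant in both libraries (4079 RPKM in Δ*gul-1*, 5511 RPKM in WT). Whether a different share of conidial cells has a part in the values below was not tested, and more cells of a kind cannot be told apart from more RNA per cell.

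All 10 kinase genes were expressed above the floor in both libraries, and none differed by 2-fold between Δ*gul-1* and WT. Their ratios of Δ*gul-1* to WT ran from 0.900 for *os-2* to 1.30 for *nrc-1*. The background was 3.88% with at least 2-fold higher RPKM and 2.63% with at least 2-fold lower RPKM among the 4409 genes, so that a count of 0 among 10 genes is near it. The 10 genes had between 2647 and 19018 reads each per library, and each end of the counting interval lay within a factor of 1.02 to 1.06 of the ratio. A ratio above 1 was found for 8 of the 10 genes, against 63.9% of the genes past the floor. After TMM scaling, explained below, it was found for 7 of the 10, against 44.0%. Together they took 0.456% of the Δ*gul-1* reads and 0.419% of the WT reads.

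**Figure D1:**
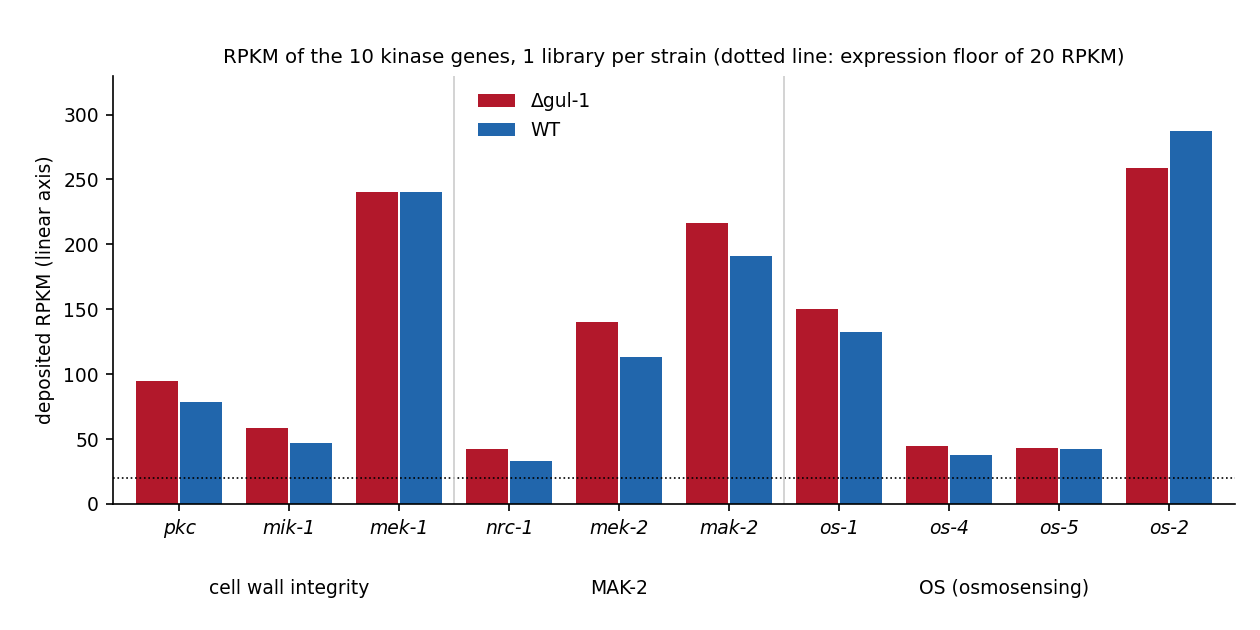
Deposited RPKM of the 10 kinase genes on a linear axis, with the Δ*gul-1* library (red) left of the WT library (blue), 1 library per strain and no error bar. The dotted line is the floor of 20 RPKM. *os-2* is the only gene with a clearly taller WT bar (258.6 RPKM in Δ*gul-1*, 287.5 RPKM in WT), and the *mek-1* bars are level.

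In the cell wall integrity pathway, both *pkc* and *mik-1* were higher in Δ*gul-1*, also after TMM scaling, and *mek-1* was level on the deposited RPKM (log2 ratio -0.15 after TMM scaling). *pkc* encodes protein kinase C, whose yeast counterpart acts on the head of this cascade. Its gene was read 8812 times (94.7 RPKM) in Δ*gul-1* and 7321 times (78.2 RPKM) in WT, a ratio of 1.21 (interval 1.17 to 1.25). *mik-1*, the MAPKKK, had 6441 reads and 58.3 RPKM in Δ*gul-1*, against 5182 reads and 46.6 RPKM in WT. Its ratio was 1.25 (interval 1.21 to 1.30). *mek-1*, the MAPKK below MIK-1, had 14843 reads and 240.1 RPKM in Δ*gul-1*, against 14942 reads and 240.3 RPKM in WT. The interval of its ratio, 0.977 to 1.02, includes 1. The 3 genes thus did not differ by one amount: in Δ*gul-1* the *mek-1* level was 4.12 times that of *mik-1*, against 5.15 times in WT.

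In the MAK-2 pathway all 3 kinase genes were higher in Δ*gul-1*, *mak-2* by little after TMM scaling (log2 ratio 0.03). With 63.9% of all genes past the floor above a ratio of 1, 3 of 3 is not far from the background. *nrc-1*, the MAPKKK, first known from mutants that fail to repress conidiation, had the highest ratio of the 10 genes. Reads for it numbered 3886 (42.7 RPKM) in Δ*gul-1*, against 3017 (32.9 RPKM) in WT, a ratio of 1.30 (interval 1.24 to 1.36). *mek-2*, the MAPKK, had 6085 reads and 140.0 RPKM in Δ*gul-1*, against 4939 reads and 113.0 RPKM in WT, a ratio of 1.24 (interval 1.19 to 1.29). *mak-2*, the MAPK, which is related to yeast Fus3 and Kss1 and is needed for hyphal fusion, had 10560 reads and 216.2 RPKM in Δ*gul-1*, against 9386 reads and 191.0 RPKM in WT. Its ratio of 1.13 (interval 1.10 to 1.16) was the smallest of the 3. Summed over the 3 genes, deposited RPKM came to 399.0 in Δ*gul-1* and 337.0 in WT. RefSeq lists the names *gul-1* and *gul-4* as synonyms of *mak-2*; here *mak-2* was matched by its locus, NCU02393, and *gul-1* by NCU01197.

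In the OS pathway the 4 genes went different ways. *os-1*, a hybrid histidine kinase whose mutants are sensitive to high osmolarity and resist dicarboximide and phenylpyrrole fungicides, had 19018 reads and 149.9 RPKM in Δ*gul-1*, against 16876 reads and 132.2 RPKM in WT, a ratio of 1.13 (interval 1.11 to 1.16). *os-4*, the MAPKKK, had 5342 reads and 45.1 RPKM in Δ*gul-1*, against 4495 reads and 37.7 RPKM in WT, a ratio of 1.195 (interval 1.15 to 1.24), just short of 1.2-fold. *os-5*, the MAPKK, had 2670 reads and 43.0 RPKM in Δ*gul-1*, against 2647 reads and 42.3 RPKM in WT. It was the gene with the fewest reads, and the interval of its ratio (1.01, interval 0.961 to 1.07) includes 1. *os-2*, the MAPK at the end of the cascade, had 15132 reads and 258.6 RPKM in Δ*gul-1*, against 16922 reads and 287.5 RPKM in WT. On the deposited RPKM it alone of the 10 genes had an interval wholly below 1 (ratio 0.900, interval 0.880 to 0.920). After TMM scaling the log2 ratios were 0.03 for *os-1*, 0.11 for *os-4*, -0.13 for *os-5* and -0.30 for *os-2*. Summed over the 4 genes, deposited RPKM came to 496.5 in Δ*gul-1* and 499.7 in WT. TMM scaling lowers the ratio of this sum, and of the MAK-2 sum, by the factor it applies to each gene.

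By the counting interval on the deposited RPKM, 7 of the 10 genes had a ratio wholly above 1 and 1 had a ratio wholly below 1. For 2 genes (*mek-1* and *os-5*) the interval includes 1. At this depth most genes are told from 1 in these libraries: of all genes past the floor, 52.3% had an interval wholly above 1 and 26.9% wholly below 1. The reference point also depends on the scaling. TMM scaling, a trimmed-mean factor computed from the reads, shifts the log2 ratio of each gene by -0.15. It takes *mek-1* and *os-5* to log2 ratios of -0.15 and -0.13. Over the 4409 genes the median log2 ratio was 0.11 with the RPKM as deposited and -0.04 with TMM. Set against this median, 7 of the kinase genes (*pkc*, *mik-1*, *nrc-1*, *mek-2*, *mak-2*, *os-1* and *os-4*) had an interval wholly above it and 3 (*mek-1*, *os-5* and *os-2*) wholly below it, against 38.1% and 38.7% of all genes past the floor. *mak-2* lay nearest to the median, at 0.07 above it on the log2 scale, and *os-1* and *os-5* were nearly as close, at 0.08 above it and -0.08 from it. *nrc-1* lay 0.27 above it and *mik-1* 0.22 above it.

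**Figure D2:**
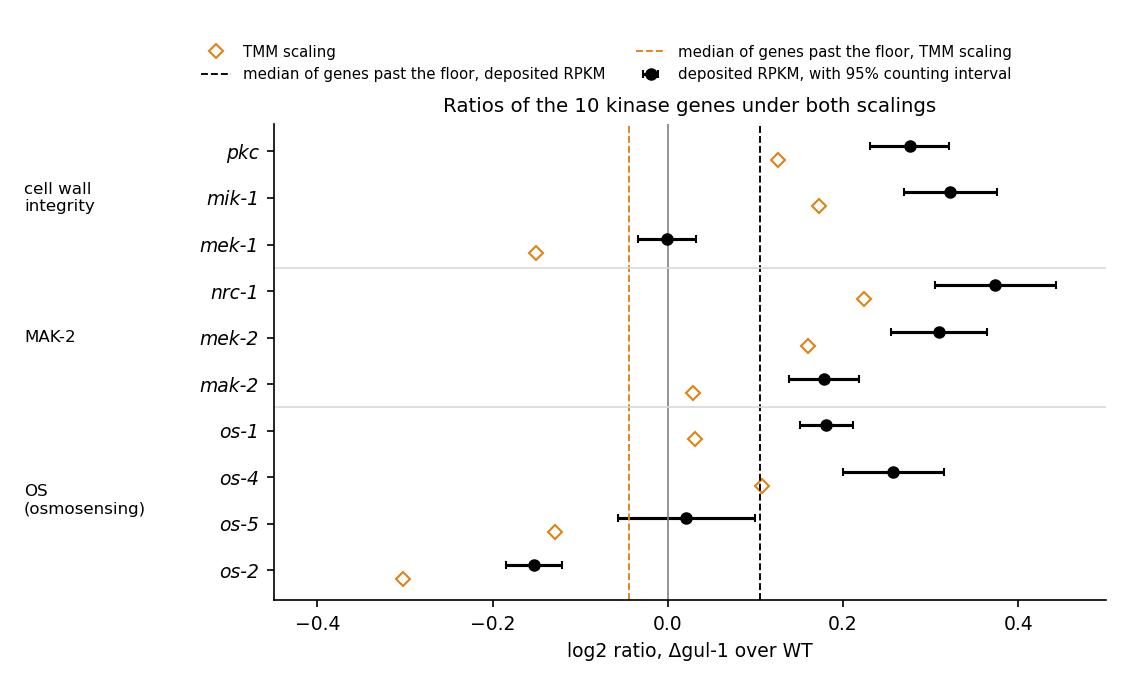
Log2 ratio of Δ*gul-1* to WT for the 10 kinase genes, from the deposited RPKM with the 95% counting interval (black) and after TMM scaling (orange diamonds). The dashed lines are the medians of the 4409 genes past the floor, 0.11 and -0.04. *nrc-1* lies farthest right and *os-2* farthest left. TMM scaling shifts every gene by one amount, so this order and the distance of each gene from the median cannot change under it.

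At a finer line of 1.2-fold, 4 of the 10 genes were higher in Δ*gul-1* (*nrc-1*, *mik-1*, *mek-2* and *pkc*) and none was lower, against 29.6% and 14.2% of the genes past the floor. This count was not stable. After TMM scaling none of the 10 was at least 1.2-fold higher and 1, *os-2*, was at least 1.2-fold lower, against backgrounds of 17.7% and 24.4%. For 3 of the 10 genes the counting interval itself crossed 1.2. The background of 2-fold calls after TMM scaling was 3.11% higher and 3.42% lower, and again no kinase gene was among them.

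The log2 ratios of the 10 kinase genes had an SD of 0.17, against 0.60 for all genes past the floor, and a median of 0.22, against 0.11. Log2 ratios of all genes past the floor ran from -9.67 to 5.24, and values so far out widen their SD. The central 50% of the genes past the floor ran from -0.11 to 0.31 on this scale, and 7 of the 10 kinase genes lay in it, with 2 (*nrc-1* and *mik-1*) above and 1 (*os-2*) below. The *nrc-1* ratio was above that of 80.2% of the genes past the floor and the *os-2* ratio above that of 20.8%. For comparison, 76 other genes are annotated as protein kinases or by similar words, a set formed after the values were seen. Among them are 3 of the partner genes described below. Of the 76 genes, 50 passed the floor. Their median log2 ratio was 0.12, with a range of -0.65 to 1.44. Their central 50% ran from 0.02 to 0.29, about as wide as that of the 10 genes, 0.06 to 0.30. Of these 50 genes 1 was at least 2-fold higher and none was 2-fold lower, against 3.88% and 2.63% of all genes past the floor. The 1 gene was *stk-44* (NCU06583, annotated as serine/threonine protein kinase-44), at 50.6 RPKM in Δ*gul-1* and 18.6 RPKM in WT. It passed the floor only through the Δ*gul-1* library. At the finer line 16 of the 50 were higher and 3 lower, against 29.6% and 14.2% of all genes past the floor. After TMM scaling 6 were higher and 5 lower, against 17.7% and 24.4%.

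**Figure D3:**
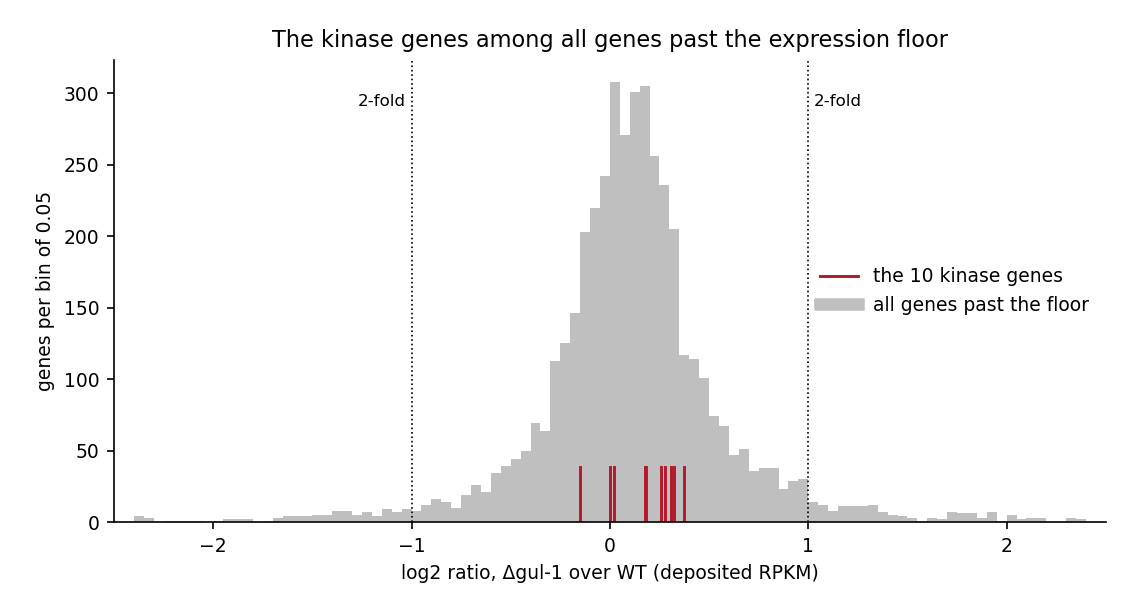
Log2 ratios of Δ*gul-1* to WT for the 4409 genes past the floor, in grey, as genes per bin, with the 10 kinase genes as red ticks and dotted lines at 2-fold. The ticks run from -0.15 to 0.37, inside both lines; 34 genes beyond 2.5 on either side are not drawn.

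Levels differed far more between the kinases than between the strains. RPKM is scaled by length and can be set side by side between genes. In both libraries *os-2*, *mek-1* and *mak-2* were the 3 most abundant of the 10 genes, followed by *os-1*, *mek-2*, *pkc* and *mik-1*, and *nrc-1* was the lowest. Of the 10 genes, only *os-4* and *os-5* changed places, with an *os-5* level 0.954 times that of *os-4* in Δ*gul-1* (interval 0.910 to 0.999) and 1.12 times in WT (interval 1.07 to 1.18). In Δ*gul-1*, *os-5* and *nrc-1* had levels that counting did not separate (1.01 times, interval 0.958 to 1.06), whereas in WT *os-5* was 1.29 times *nrc-1* (interval 1.22 to 1.35). Against all 9730 genes, the *os-2* level was above that of 97.1% in Δ*gul-1* and 97.5% in WT, and the *nrc-1* level above that of 77.3% and 73.0%.

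Along each cascade the MAPKKK gene stood low and the MAPK gene was 2.23 to 7.63 times as abundant, *mak-1* included. The ratio of 2 genes within 1 library does not depend on how libraries are scaled, so that a change of this ratio between strains is free of the scaling (its 95% interval is a normal approximation from the reads). In the OS cascade *os-2* stood at 5.74 times *os-4* in Δ*gul-1* and at 7.63 times in WT, a change of 0.752-fold (interval 0.719 to 0.787). The change lay in both steps: *os-5* to *os-4* changed by 0.849-fold (interval 0.794 to 0.907) and *os-2* to *os-5* by 0.887-fold (interval 0.837 to 0.940). In the MAK-2 cascade *mak-2* stood at 5.06 times *nrc-1* in Δ*gul-1* and at 5.80 times in WT, a change of 0.873-fold (interval 0.827 to 0.923). There the first step, *mek-2* to *nrc-1*, had an interval that includes 1 (0.957-fold, 0.900 to 1.02), and the second, *mak-2* to *mek-2*, did not (0.913-fold, 0.872 to 0.957).

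For the wall cascade the MAPK gene *mak-1* (NCU09842), which is not one of the 10 genes, was read as well. With 9572 reads and 130.0 RPKM in Δ*gul-1*, against 8516 reads and 115.0 RPKM in WT, its ratio was 1.13 (interval 1.10 to 1.16). *mek-1* to *mik-1* changed by 0.799-fold (interval 0.766 to 0.834), while *mak-1* to *mek-1* changed the other way, by 1.13-fold (interval 1.09 to 1.17). From *mik-1* to *mak-1* the change was 0.904-fold (interval 0.863 to 0.948). Over the 3 cascades, the later kinase had the lower ratio of Δ*gul-1* to WT in 8 of 9 pairs, *mak-1* with *mek-1* being the exception. These pairs share genes: in each cascade the pair of MAPK and MAPKKK follows from the steps between them and adds no separate value. The interval of *mek-2* to *nrc-1* includes 1, and no share over other gene pairs was set beside the count. The intervals again cover counting error only. For the input kinases, *pkc* to *mik-1* changed by 0.968-fold, with an interval of 0.923 to 1.02 that includes 1. *os-1* to *os-4* changed by 0.948-fold, with an interval of 0.907 to 0.992 that does not.

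**Figure D4:**
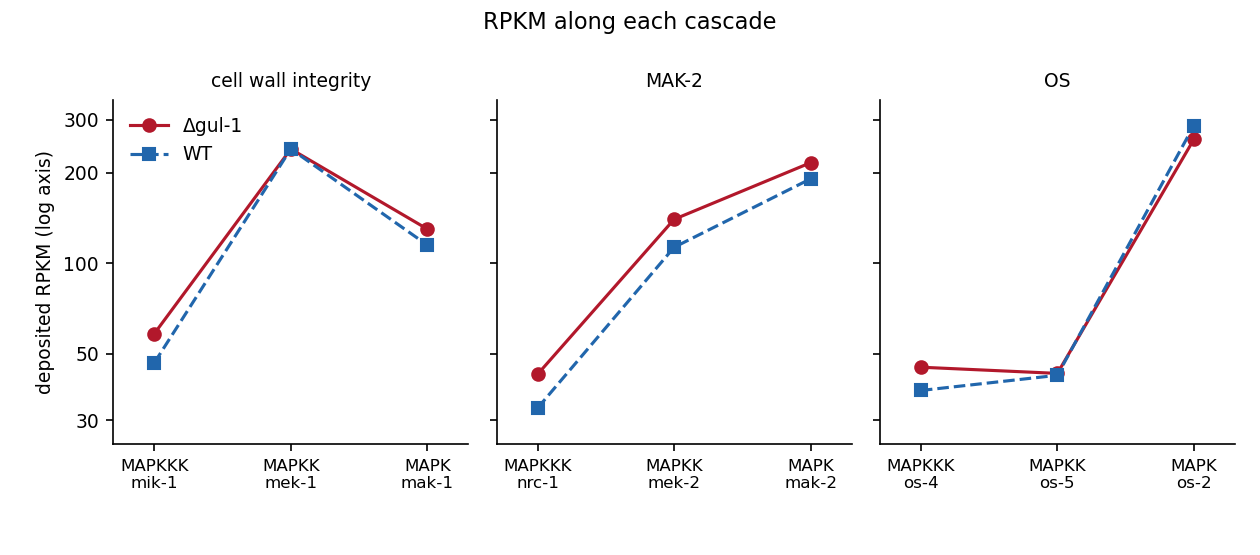
Deposited RPKM on a log axis for the MAPKKK, MAPKK and MAPK gene of each cascade, in the Δ*gul-1* library (red, solid) and the WT library (blue, dashed), 1 library per strain. The Δ*gul-1* line starts above the WT line at the MAPKKK gene in all 3 panels, meets it at *mek-1* in the wall panel, and ends below it only in the OS panel, where *os-2* stands at 258.6 RPKM in Δ*gul-1* and 287.5 RPKM in WT. *mak-1*, in the wall panel, is not one of the 10 genes.

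The 3 MAPKKK genes were all higher in Δ*gul-1*, after TMM scaling too, with log2 ratios of 0.32 (*mik-1*), 0.37 (*nrc-1*) and 0.26 (*os-4*), and they were also among the less abundant of the 10 genes. Here too the background is 63.9% of genes above a ratio of 1, or 44.0% after TMM scaling. Across the 10 genes the log2 ratio went down with mean RPKM (Spearman rho of -0.70, n = 10, all from the same 2 libraries), and across the 4409 genes past the floor it did so more weakly (-0.15). In the quartile of these genes with the highest mean RPKM, which holds *pkc*, *mek-1*, *mek-2*, *mak-2*, *os-1* and *os-2*, the median log2 ratio was 0.02. It was 0.13 in the second lowest quartile, which holds *nrc-1* and *os-4*, and 0.10 in the next, which holds *mik-1* and *os-5*. The part of expression level in the order of the 10 ratios was not tested. With exon length the correlation was 0.30 over the 10 genes and -0.03 over all genes past the floor.

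The 10 genes are spread over 5 chromosomes of the NC12 assembly, as RefSeq places them. *os-4* (4442191 to 4448082), *os-5* (7913654 to 7917043) and *os-1* (9024259 to 9030833) lie on chromosome I. *mek-1* (1333215 to 1336588) and *nrc-1* (1804191 to 1808733) lie on chromosome III, and *pkc* (1590805 to 1595694) and *os-2* (4948586 to 4952179) on chromosome IV. *mek-2* (1501026 to 1504190) lies on chromosome V, and *mak-2* (2654598 to 2657461) and *mik-1* (3240259 to 3247655) on chromosome VII. In RefSeq 3 of the 10 overlap another gene, for which reads cannot be told apart where the counting did not use strand. *mek-2* overlaps NCU04613 by 292 bases, *mak-2* overlaps NCU02394 by 127 bases and *pkc* overlaps NCU06546 by 9 bases. These neighbours were read far less than the kinase genes, with 356, 1153 and 209 reads in Δ*gul-1* and 368, 959 and 371 reads in WT. Such counts do not show how many reads in the overlaps were left out. *mak-1* overlaps NCU09843 by 1160 bases, a gene with 201 reads in Δ*gul-1* and 267 reads in WT.

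Around the kinases, 29 genes for sensors, GTPases, scaffolds and transcription factors of the same pathways were read. Of these, 26 passed the floor, 1 was at least 2-fold higher in Δ*gul-1*, none was 2-fold lower and 25 lay within 2-fold. The shares of all genes past the floor were 3.88% higher and 2.63% lower. The median log2 ratio of the 26 partner genes was 0.04, against 0.11 for all genes past the floor and 0.22 for the 10 kinase genes.

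Of the 7 wall integrity partners, all past the floor, *wsc-1* (NCU06910) lay farthest from the others. It encodes a WSC-type sensor of the cell surface, a class that in yeast reports wall stress to Rho1. *wsc-1* had 15863 reads and 238.8 RPKM in Δ*gul-1*, against 27870 reads and 417.0 RPKM in WT, a ratio of 0.573 (interval 0.561 to 0.584). A lower ratio was found for 3.65% of the genes past the floor. The next steps lay nearer to a ratio of 1. *rho-1* (NCU01484), for the GTPase that activates protein kinase C and glucan synthase, stood at 749.5 RPKM in Δ*gul-1* and 675.0 RPKM in WT. The ratio of *rho-1* was 1.11 (interval 1.09 to 1.13). *rgf-1* (NCU00668), for its exchange factor, stood at 52.0 RPKM in Δ*gul-1* and 53.0 RPKM in WT. *lrg-1* (NCU02689), for a GTPase-activating protein, had a ratio of 1.14, and *ham-7* (NCU00881), for a wall protein needed for fusion, one of 0.928. The MADS-box transcription factor gene NCU02558, of the type that ends this cascade in yeast, had a ratio of 0.873 (interval 0.806 to 0.944). It stood at 19.8 RPKM in Δ*gul-1* and 22.7 RPKM in WT, so it passed the floor only through the WT library, where it was higher.

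Of 11 MAK-2 partners, 10 passed the floor, with *pre-1* as the only gene at least 2-fold higher. *pre-1* (NCU00138), a pheromone receptor gene, had 2012 reads and 30.9 RPKM in Δ*gul-1*, against 914 reads and 14.0 RPKM in WT. Its log2 ratio was 1.15, and 0.997 after TMM scaling, just within 2-fold. *pre-1* passed the floor only through the Δ*gul-1* library, where it was higher, so its call depends on that filter. The other receptor gene, *pre-2* (NCU05758), was barely read, with 29 reads in each library. Lower ratios were found for the transcription factor gene *pp-1* (NCU00340), the counterpart of yeast STE12 under MAK-2, at 118.6 RPKM in Δ*gul-1* and 163.2 RPKM in WT (ratio 0.726, interval 0.708 to 0.746). *ham-5* (NCU01789), for the scaffold that binds the MAK-2 cascade, had 23.5 RPKM in Δ*gul-1* and 29.0 RPKM in WT (ratio 0.813, interval 0.774 to 0.853). So the 3 kinase genes of this pathway were above the median of the genes past the floor, and *ham-5* and *pp-1* below it. Below it lay 8 of the 10 partners past the floor, *adv-1* among them. Among these 8, the counting intervals of *ras-2* and *so* include the median. Of all 4409 genes past the floor, 2204 lay below it and 2204 above it. The GTPase genes *ras-2* (NCU03616), *cdc-42* (NCU06454) and *rac-1* (NCU02160) had ratios of 1.06, 1.09 and 0.902, and *cdc-24* (NCU06067), for an exchange factor, had 0.926. The kinase gene *stk-4* (NCU03894) had a ratio of 0.982, the fusion gene *so* (NCU02794) 1.07 and the transcription factor gene *adv-1* (NCU07392) 0.930.

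Of 11 OS partners, 2 stayed under the floor and the other 9 lay within 2-fold. Between OS-1 and OS-4 a phosphorelay carries the signal. *hpt-1* (NCU01489), for its histidine phosphotransferase, stood at 160.5 RPKM in Δ*gul-1* and 145.4 RPKM in WT, a ratio of 1.10 (interval 1.05 to 1.15). *rrg-1* (NCU01895), for its response regulator, stood at 34.3 RPKM in Δ*gul-1* and 34.1 RPKM in WT, a ratio of 1.00 (interval 0.956 to 1.05). The level of *os-1* was 0.934 times that of *hpt-1* in Δ*gul-1* and 0.909 times in WT, a change of 1.03-fold with an interval of 0.978 to 1.08. The second response regulator gene, *rrg-2* (NCU02413), had a ratio of 1.15. Among other histidine kinase genes, *nik-2* (NCU01833) had a ratio of 1.24, *dcc-1* (NCU00939) 1.05 and NCU02057 0.908. *nik-2* passed the floor only through the Δ*gul-1* library, where it was higher (21.6 RPKM, against 17.4 RPKM in WT). The phytochrome genes *phy-1* (NCU04834) and *phy-2* (NCU05790) were the pair under the floor, *phy-2* with 208 reads in Δ*gul-1* and 61 reads in WT (ratio 3.43, interval 2.57 to 4.64).

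Beyond OS-2 the genes again differed. *asl-1* (NCU01345), for a bZIP transcription factor that acts below OS-2, had a ratio of 1.08, and the catalase gene *cat-1* (NCU08791) one of 0.918. *ccg-1* (NCU03753), a clock-controlled gene whose cycling is known to depend on the OS pathway, was the most abundant of the partners, with 61226 reads and 4847 RPKM in Δ*gul-1*, against 36118 reads and 2842 RPKM in WT. Its ratio was 1.71 (interval 1.68 to 1.73), below 2-fold, and higher than that of 92.8% of the genes past the floor. The *os-2* ratio of 0.900 was lower than that of the other 3 OS kinase genes and of all 9 OS partners past the floor. Its interval (0.880 to 0.920) overlapped those of NCU02057 (0.871 to 0.946) and *cat-1* (0.885 to 0.953).

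**Figure D5:**
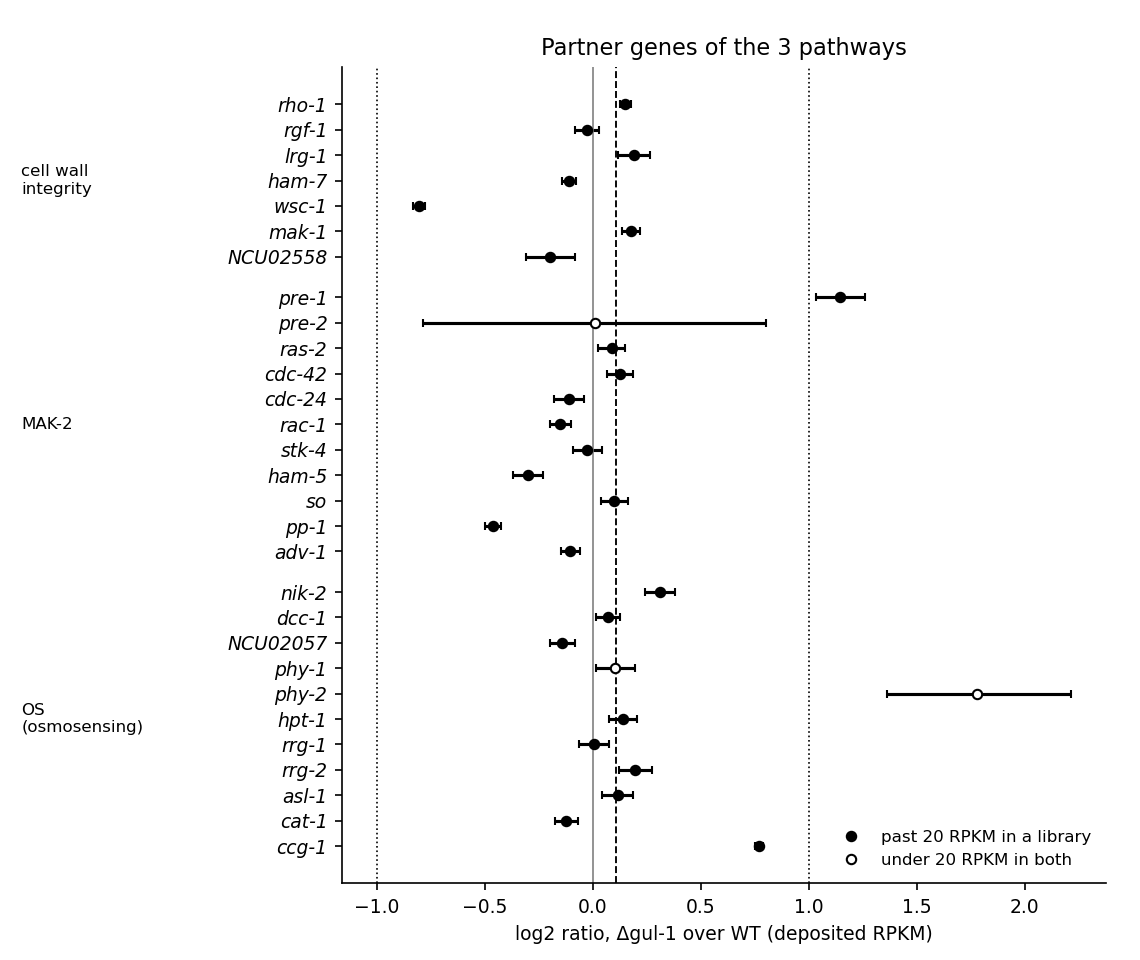
Log2 ratio of Δ*gul-1* to WT for the 29 partner genes with 95% counting intervals, from deposited RPKM, filled where a gene passed 20 RPKM in at least 1 library. Dotted lines mark 2-fold and the dashed line the median of the genes past the floor. *pre-1* lies past the right line at 1.15, *wsc-1* at -0.80 and *pp-1* at -0.46, while *phy-2* (1.78) is under the floor.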

How the data were processed

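The authors mapped reads with TopHat 2.0.8b (TopHat2 in the submitters' processing notes) to the predicted *N. crassa* transcripts of the genome and counted those unique to 1 gene with HTSeq 0.5.4p2. Their deposited table holds raw counts per gene and RPKM. Strand use in counting was not given in the sources used here. Deposited RPKM equalled counts over exon length and column total. The table's 1 other value column, the authors' NOISeq probability, was not used.

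Ratios of Δ*gul-1* to WT were taken on deposited RPKM with no pseudocount. Genes above 20 RPKM in either library, the floor of the paper's methods, were kept. Intervals are exact (Clopper-Pearson, conditional on both counts). Those of ratios between genes use a normal approximation on the log scale. TMM scaling used edgeR 4.0.16 under R 4.3.3. The other steps used scipy 1.17.1, numpy 2.4.6, pandas 2.3.3 and Python 3.11.15. Intervals and calls were tested on simulated data. The named genes are the 10 kinases, *gul-1*, 5 conidial and 1 hyphal marker, and partner genes fixed by locus, of which 29 of 30 were kept because their annotation or RefSeq name matched (NCU06593 was dropped). The members and lists were chosen with earlier results of these data known. Positions are from the RefSeq annotation of NC12, matched by locus for all 10 genes. No sequences are shown.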

Additional observations from a re-analysis of the deposited data

How the results depend on the processing

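With 1 library per strain no replicate could be left out, and no paired analysis was possible because each strain has 1 library. No kinase gene was 2-fold higher or lower under TMM or median-of-ratios factors, without the 65 most abundant genes, with a pseudocount of 1 RPKM, under floors of 5 or 50 RPKM or none, or at 1.5-fold. The count at least 1.2-fold higher was 4 on the deposited RPKM, 0 under TMM and under median-of-ratios factors, and 2 without the most abundant genes, and that at least 1.2-fold lower was 0 and, under TMM and median-of-ratios factors, 1. The median log2 ratio of the 10 genes, 0.22, became 0.0695 under TMM, 0.0696 under median-of-ratios factors and 0.16 without the most abundant genes. Each of these scalings shifts all genes by one amount (-0.15, -0.15 and -0.06 on the log2 scale). All 3 turned the ratio of 1 kinase gene, *os-5*, to below 1. Under a pseudocount none turned. Counting error on a kinase ratio was at most a factor of 1.06, and the spread between cultures was not measured.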
